A study of Mus musculus with 25 samples.

Results

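Clostridia whose relatives are known to form trimethylamine made up a small, patchy part of the fecal community of these mice. They were taken by genus name as the amplicon sequence variants (ASVs, distinct 16S rRNA gene sequences after error removal) named Hungatella, Enterocloster, Clostridium, [Clostridium] or Lachnoclostridium. Lachnoclostridium ASVs with scindens in their species name were left out. The rule found 144 of the 1555 ASVs, with 6160 of 300831 counts (2.05%). No measured abundance entered the rule. Full-length 16S rRNA genes had been sequenced on a long-read PacBio instrument from the stool of C57BL/6 mice, in 25 libraries of 8498 to 22404 counts. There were 5 groups of 5 libraries: OVX+GEX, OVX+FMT, OVX+PBS, OVX and Sham. OVX is the usual short form of ovariectomy, which removes the ovaries and leaves an animal short of estrogen; the Sham group had the surgery without it, as that name is commonly used. OVX+GEX mice also received GEX, which the labels do not spell out; the series' design text speaks of a traditional medicine without naming it. OVX+FMT mice received a fecal microbiota transplant and OVX+PBS mice phosphate-buffered saline. Donor, dose, timing and age are not stated, and the sex field reads Male throughout, which does not go with ovariectomy. Nothing ties libraries to cages or litters, so the p-values rest on the spread among these samples alone.

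Trimethylamine is a volatile amine that gut bacteria release from dietary choline and carnitine. The choline route runs through the glycyl radical enzyme CutC, which splits choline into trimethylamine and acetaldehyde, and the carnitine route through the oxygenase CntA. The host absorbs trimethylamine, which is turned into trimethylamine N-oxide (TMAO), the metabolite in the study's title. CutC is scattered among strains of Clostridia and Enterobacteria and is not a fixed trait of a genus. A 16S name therefore does not show that the gene is there, and neither cutC nor trimethylamine was measured in these libraries.

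Lachnoclostridium, a loose genus of the Lachnospiraceae, held 64 of the members and 46.6% of their counts. Its largest name was Lachnoclostridium pacaense with 48 ASVs and 30.1% of member counts. The plant-fibre degrader [Clostridium] polysaccharolyticum followed with 14 ASVs and 14.9%, and the cellulose degrader [Clostridium] populeti had 2 ASVs and 1.59%. Hungatella had 32 ASVs and 24.8% of the counts. Of these, 25 ASVs and 24.0% of the counts were named Hungatella hathewayi, the member species best known for forming trimethylamine from choline in culture. The bracketed genus [Clostridium], placed by the table in the Oscillospiraceae, had 24 ASVs and 12.8%, mostly [Clostridium] viride (10.2%), an amino acid fermenter. [Clostridium] methylpentosum, a user of rhamnose and fucose, held 2.14%. Enterocloster had 17 ASVs and 10.5%, of which Enterocloster bolteae held 9.12% and Enterocloster clostridioformis 1.35%. The Enterocloster species best known for trimethylamine, E. asparagiformis, was not among the names. Clostridium in the strict sense had 7 ASVs and 5.37%, and Clostridium disporicum, a sugar-fermenting gut clostridium, held 3.75% of member counts. No library held more than 49 of the 144. Of the members, 56 (38.9%) were seen in 1 library, against 39.1% of all other ASVs, and the most widespread, ASV_268 of [Clostridium] methylpentosum, was seen in 16 of 25.

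By group mean the summed members were lowest in OVX+PBS and highest in Sham; without OVX+FMT replicate 4 the OVX+FMT mean (0.421%) was lower than that of OVX+PBS (0.710%). Their share of library counts was 1.96%, 4.83%, 0.833%, 1.51% and 0.668% in the 5 OVX+GEX libraries. It was 0.353%, 0.768%, 0.377%, 4.50% and 0.187% in OVX+FMT libraries. It was 1.28%, 0.996%, 0.993%, 0.187% and 0.0906% in OVX+PBS libraries. OVX+PBS was thus low throughout, while OVX+GEX and OVX+FMT each had 1 library far above the rest. In OVX libraries the shares were 1.10%, 5.96%, 3.18%, 0.642% and 1.19%. In Sham libraries they were 2.91%, 3.74%, 2.61%, 5.17% and 5.08%. Of the 20 libraries of OVX groups, 16 lay below the lowest Sham library: 4 of OVX+GEX, 4 of OVX+FMT, 5 of OVX+PBS and 3 of OVX. This was not particular to the members. For the other Lachnospiraceae, without members and scindens ASVs, the summed share lay below its lowest Sham library in 17 of 20. These were 4 of OVX+GEX, 4 of OVX+FMT, 5 of OVX+PBS and 4 of OVX. Group means were 1.96% ± 1.69 in OVX+GEX, 1.24% ± 1.84 in OVX+FMT, 0.710% ± 0.535 in OVX+PBS, 2.41% ± 2.21 in OVX and 3.90% ± 1.19 in Sham (SD, n = 5 each). No test is given for this sum, since the members were chosen with results of these data known. Counting error was small beside the spread: the 95% Wilson interval was 5.53% to 6.42% for OVX replicate 2 and 0.0459% to 0.179% for OVX+PBS replicate 5. PCR reads are not independent molecules, so these intervals cover counting error alone.

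**Figure D1:**
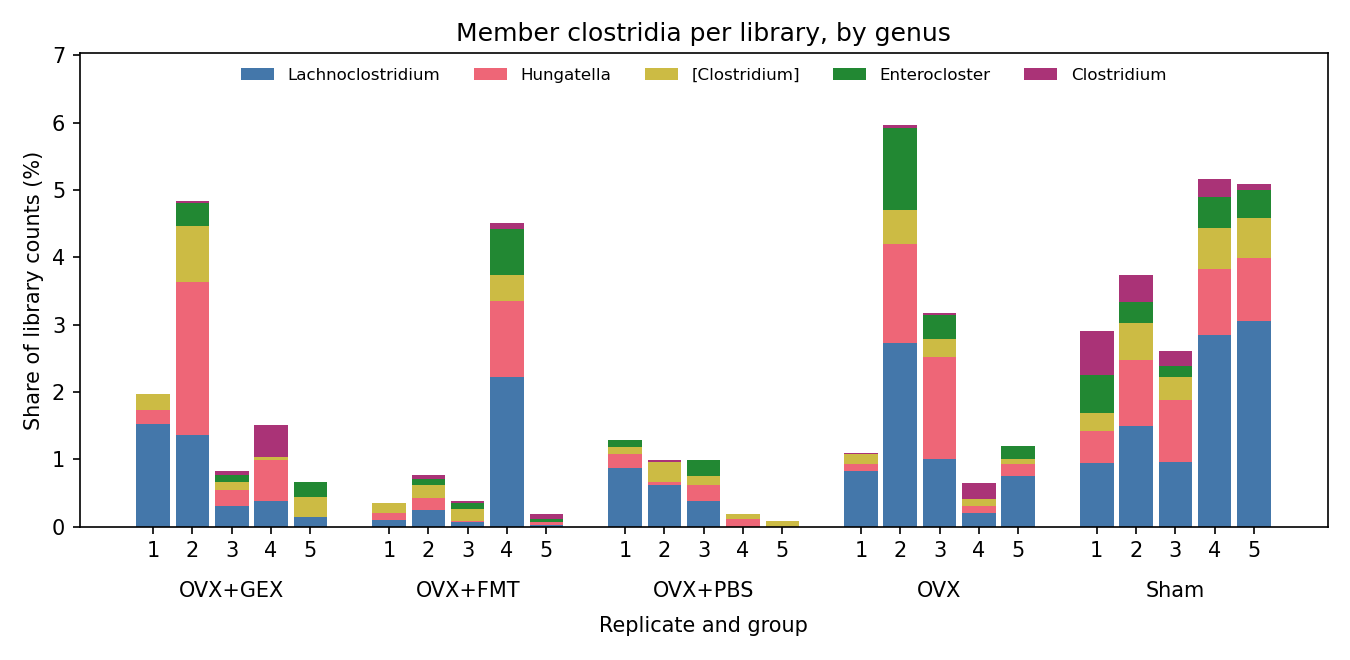
Share of library counts (%, vertical axis) held by the member clostridia in each of the 25 libraries, by replicate and group, with a stacked colour for each of the 5 genera. OVX replicate 2 (5.96%), OVX+GEX replicate 2 (4.83%) and OVX+FMT replicate 4 (4.50%) reach the height of the Sham libraries (2.61% to 5.17%), and OVX+PBS stays at or below 1.28%.

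A group mean rested on 1 library in several cases. The median, 0.377% in OVX+FMT and 0.993% in OVX+PBS, also ordered these groups the other way from the mean. Without replicate 2 the OVX+GEX mean was 1.24%, and without replicate 2 the OVX mean was 1.53%. The same 3 libraries had the highest shares of other Lachnospiraceae in their groups: 22.8% in OVX+GEX replicate 2, 31.1% in OVX+FMT replicate 4 and 27.1% in OVX replicate 2. Other Lachnospiraceae, without members and scindens ASVs, are the family in which the table places Lachnoclostridium and Enterocloster but not the other 3 genera. They averaged 14.7% ± 5.67 in OVX+GEX, 11.3% ± 11.3 in OVX+FMT, 13.0% ± 3.40 in OVX+PBS, 14.7% ± 7.62 in OVX and 26.2% ± 8.44 in Sham (SD, n = 5 each). For every 100 of their counts there were 11.7 ± 5.51 member counts in OVX+GEX, 8.01 ± 3.80 in OVX+FMT, 5.25 ± 3.82 in OVX+PBS, 14.4 ± 6.57 in OVX and 15.5 ± 5.59 in Sham (SD, n = 5 each). Set against other Lachnospiraceae, members of all 5 genera had their lowest mean in OVX+PBS, where 5 of 5 libraries (0.77 to 9.87) lay below the lowest Sham library (12.7). Duncaniella, a Muribaculaceae genus, held 44.9% and 61.9% of OVX+PBS replicates 4 and 5, the 2 libraries of that group poorest in members. Its part in the low shares was not tested. Fewer cells of a genus, fewer rRNA gene copies per cell and more of other bacteria cannot be told apart in shares.

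**Figure D2:**
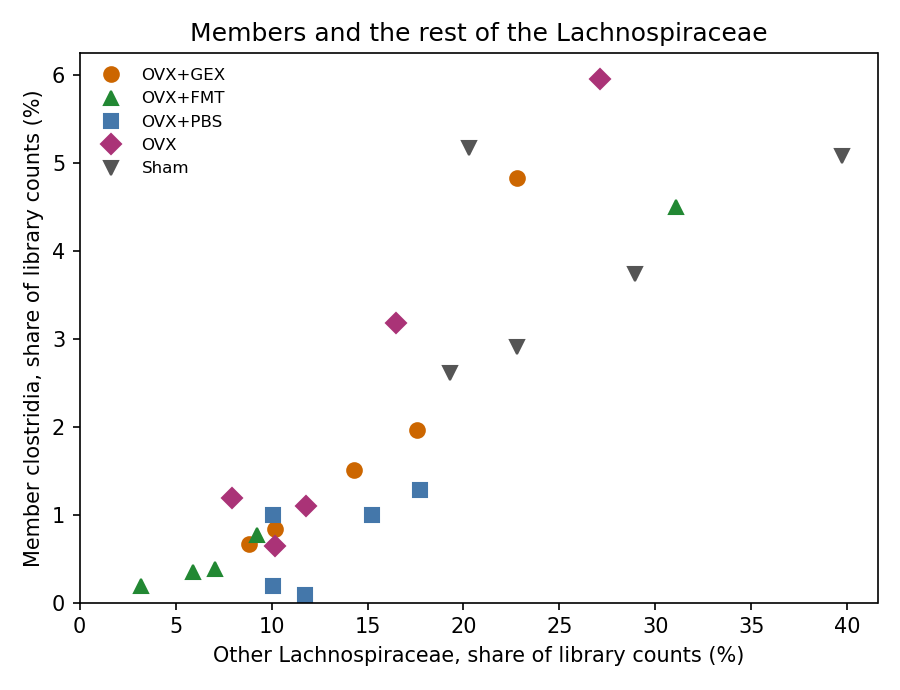
Share of library counts (%) of the member clostridia (vertical axis) against that of all other Lachnospiraceae (horizontal axis), 1 point per library, with shape and colour for the group. Libraries rich in other Lachnospiraceae are rich in members, and OVX+PBS libraries (10.1% to 17.7% other Lachnospiraceae) sit low for their position, at 0.0906% to 1.28% members.

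Group means of the number of member ASVs had the same order as those of the share. OVX+GEX libraries held 15, 36, 9, 13 and 11 of the 144, OVX+FMT libraries 7, 12, 9, 28 and 5, and OVX+PBS libraries 23, 12, 10, 3 and 1. OVX libraries held 9, 42, 27, 9 and 10, and Sham libraries 20, 35, 28, 49 and 33. Brought to the smallest library total, the expected number averaged 16.8 ± 11.0 in OVX+GEX, 12.0 ± 9.32 in OVX+FMT, 9.44 ± 8.07 in OVX+PBS, 19.4 ± 14.8 in OVX and 32.5 ± 10.1 in Sham (SD, n = 5 each). The observed means were 16.8, 12.2, 9.8, 19.4 and 33 in the same groups, so bringing the libraries to 1 depth kept the order of the means. Without OVX+FMT replicate 4 the OVX+FMT mean was 8.25 member ASVs (8.04 at the smallest total), below that of OVX+PBS. Of the members, 54 were seen in OVX-group libraries alone (18 of them in more than 1 library), 28 in Sham libraries alone (8 in more than 1), and 62 in both. These are 37.5%, 19.4% and 43.1% of the members, against 42.0%, 15.9% and 42.0% of all other ASVs. OVX+PBS replicate 5 kept a single member, ASV_268, with 8 counts.

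Genus by genus, no member genus passed edgeR's quasi-likelihood test at a Benjamini-Hochberg adjusted p under 0.05 over 82 genera in any of 9 comparisons. In OVX+PBS against Sham, 1 of 82 genera passed (1.22%) and 0 of the 5 members, with 2 members at an unadjusted p under 0.05. DESeq2's Wald test called 8 of 82 genera there (9.76%) and limma on centred log-ratios 2 (2.44%), each with 1 member, Clostridium. Clostridium averaged 0.00711% ± 0.0159 in OVX+PBS and 0.330% ± 0.216 in Sham (SD, n = 5 each). The edgeR estimate was -4.75 on the log2 scale (SE 1.66, adjusted p = 0.126, and 0.0263 to 0.276 over the alternatives). Clostridium was at 0 in 4 of 5 OVX+PBS libraries, where a count of 0 allows a share of up to 0.0138% to 0.0351%. Hungatella averaged 0.122% ± 0.0999 in OVX+PBS and 0.859% ± 0.217 in Sham, and edgeR gave a log2 difference of -2.33 (SE 1.13, adjusted p = 0.232). Lachnoclostridium averaged 0.374% ± 0.384 and 1.86% ± 1.02 in the same order of groups (log2 fold change -1.84, SE 1.05, edgeR adjusted p = 0.287). Clostridium, Hungatella and Lachnoclostridium each had 5 of 5 OVX+PBS libraries below every Sham library, as had 7 of the 82 genera tested (8.54%). Enterocloster (-2.10) and [Clostridium] (-1.07) had estimates in the same direction, with edgeR adjusted p-values of 0.406 and 0.478 and groups that overlapped. The median over all 82 genera was -0.48 in the same fit, so part of each estimate is common to the table. With library totals in place of TMM factors the median was -1.10, a scaling for which the member estimates are not given here.

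**Figure D3:**
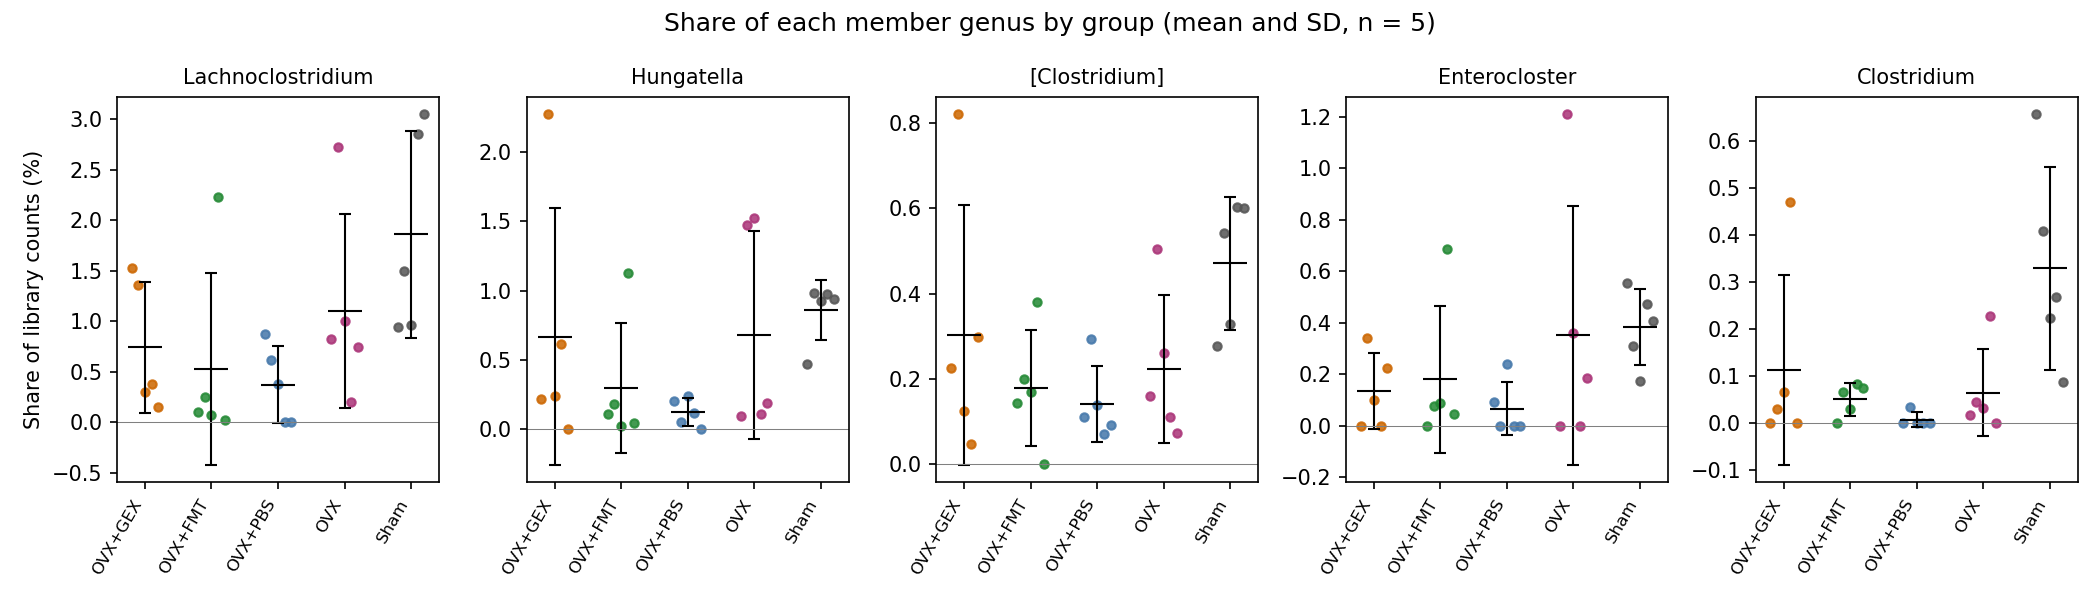
Share of library counts (%, vertical axes with a scale of their own for each genus) of the 5 member genera in OVX+GEX, OVX+FMT, OVX+PBS, OVX and Sham. Points are libraries, and the black dash and bar are the mean and SD (n = 5), which can reach below 0; OVX+PBS lies wholly below Sham for Clostridium (at most 0.0356% against at least 0.0888%), Hungatella (0.240% against 0.473%) and Lachnoclostridium (0.878% against 0.945%).

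The saline group was set against untreated OVX mice next. In OVX+PBS against OVX, 0 of 82 genera passed (0%), with 1 member, Hungatella, at an unadjusted p under 0.05 and no member called by DESeq2 or limma. Hungatella averaged 0.122% ± 0.0999 in OVX+PBS and 0.678% ± 0.750 in OVX (log2 fold change -2.42, SE 1.13, edgeR adjusted p = 0.309). The OVX libraries lay in 2 clumps, 1.47% and 1.52% in replicates 2 and 3 and 0.0978% to 0.187% in the other 3, and the OVX+PBS libraries (0% to 0.240%) overlapped the lower one. Estimates were below 0 for the other 4 genera too: -2.71 for Clostridium, -2.39 for Enterocloster, -1.53 for Lachnoclostridium and -0.41 for [Clostridium] on the log2 scale, against a median of -0.48 over all genera.

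After transplantation the summed members lay below the highest saline library (1.28%) except in 1 library. In OVX+FMT against Sham, 1 of 82 genera passed (1.22%) and 0 members, with 0 members at an unadjusted p under 0.05 and 0 called by DESeq2 or limma. Lachnoclostridium averaged 0.532% ± 0.950 in OVX+FMT and 1.86% ± 1.02 in Sham (SD, n = 5 each; log2 fold change -1.54, SE 1.04, edgeR adjusted p = 0.438). Its 5 OVX+FMT libraries held 0.0982%, 0.247%, 0.0695%, 2.22% and 0.0203%, against 0.945%, 1.50%, 0.962%, 2.85% and 3.05% in Sham. Without OVX+FMT replicate 4 the log2 fold change was -3.77 and the edgeR adjusted p 0.0177, so that 1 library decided this call. Calls over all genera in that fit are not given here. Clostridium was the 1 member genus with every OVX+FMT library (0% to 0.0844%) below every Sham library (0.0888% to 0.657%), as had 4 of 82 genera (4.88%). Its log2 fold change was -1.98 (SE 1.42, edgeR adjusted p = 0.477). Hungatella (-1.23), [Clostridium] (-1.02) and Enterocloster (-0.78) also had estimates below 0, with a median of 0.13 over all 82 genera. OVX+FMT against OVX+PBS sets the transplant against saline, though the labels do not say whether these groups differed in that alone. It had 0 of 82 genera past the threshold (0%), 0 members at an unadjusted p under 0.05 and 0 by DESeq2 or limma. Enterocloster stood at 0.179% ± 0.285 in the transplanted group and 0.0663% ± 0.105 in the saline group, and [Clostridium] 0.178% ± 0.136 and 0.140% ± 0.0891 (SD, n = 5 each). The edgeR adjusted p-values of the 5 member genera ran from 0.352 to 0.982 there, and 4 of the 5 estimates changed sign under some alternative.

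GEX against untreated OVX gave no difference beyond the spread for these genera. In OVX+GEX against OVX, 0 of 82 genera passed (0%), with 0 members at an unadjusted p under 0.05 and 0 by DESeq2 or limma. Lachnoclostridium averaged 0.743% ± 0.647 in OVX+GEX and 1.10% ± 0.958 in OVX, and Hungatella 0.668% ± 0.925 and 0.678% ± 0.750. Enterocloster averaged 0.133% ± 0.148 and 0.351% ± 0.503 in the same groups, [Clostridium] 0.303% ± 0.305 and 0.222% ± 0.174, and Clostridium 0.114% ± 0.202 and 0.0646% ± 0.0925 (SD, n = 5 each). The edgeR adjusted p-values ran from 0.907 to 0.974, and 4 of the 5 signs turned under some alternative. In OVX+GEX against Sham, 4 of 82 genera passed (4.88%), 0 members, with 0 at an unadjusted p under 0.05 and 0 by DESeq2 or limma; edgeR adjusted p-values ran from 0.898 to 0.980. No member genus had all OVX+GEX libraries below Sham, as had 3 of 82 genera (3.66%). In OVX against Sham, 0 of 82 genera passed (0%), 0 members, with 0 at an unadjusted p under 0.05 and 0 by DESeq2 or limma. The edgeR adjusted p-values ran from 0.802 to 0.934, and 0 member genera had all OVX libraries below Sham, against 1 of 82 (1.22%). The effect of the transplant minus the effect of GEX was tested as an interaction: 0 of 82 genera passed (0%), 0 members by edgeR, DESeq2 or limma, and 0 at an unadjusted p under 0.05. These comparisons share the Sham, OVX or OVX+PBS libraries among them and are not independent of each other.

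Set together, the 4 OVX groups had lower estimates than Sham for 5 of 5 member genera, and none passed. With all 20 OVX-group libraries against Sham in edgeR, 1 of 82 genera passed (1.22%) and 0 members, 1 of them at an unadjusted p under 0.05 and 0 by DESeq2 or limma. Clostridium averaged 0.0592% ± 0.110 (n = 20) in the OVX groups and 0.330% ± 0.216 (n = 5) in Sham. OVX-group libraries below the lowest Sham library were 17 of 20 for other Lachnospiraceae summed and 18 of 20 for Clostridium. Its log2 fold change was -2.40 (SE 0.96, edgeR adjusted p = 0.116, and 0.0459 to 0.431 over the alternatives). The 2 libraries above were OVX replicate 4 (0.227%) and OVX+GEX replicate 4 (0.471%). Lachnoclostridium averaged 0.687% ± 0.762 and 1.86% ± 1.02 (log2 fold change -1.12, SE 0.75, edgeR adjusted p = 0.462). Without OVX+FMT replicate 4 both genera passed, with an edgeR adjusted p of 0.0489 each, in a fit whose calls over all genera are not given here. Enterocloster averaged 0.182% ± 0.298 and 0.383% ± 0.148, Hungatella 0.441% ± 0.638 and 0.859% ± 0.217, and [Clostridium] 0.211% ± 0.188 and 0.471% ± 0.156 (SD, n = 20 and 5). Their log2 fold changes were -0.81, -0.78 and -0.66, against a median of -0.15 over all 82 genera in the same fit. With library totals in place of TMM factors the median was -0.70, a scaling for which the member estimates are not given here. The 38 other genera of the members' 3 families had 0 calls in this comparison, 26 of 38 estimates below 0 and a median of -0.31.

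**Figure D4:**
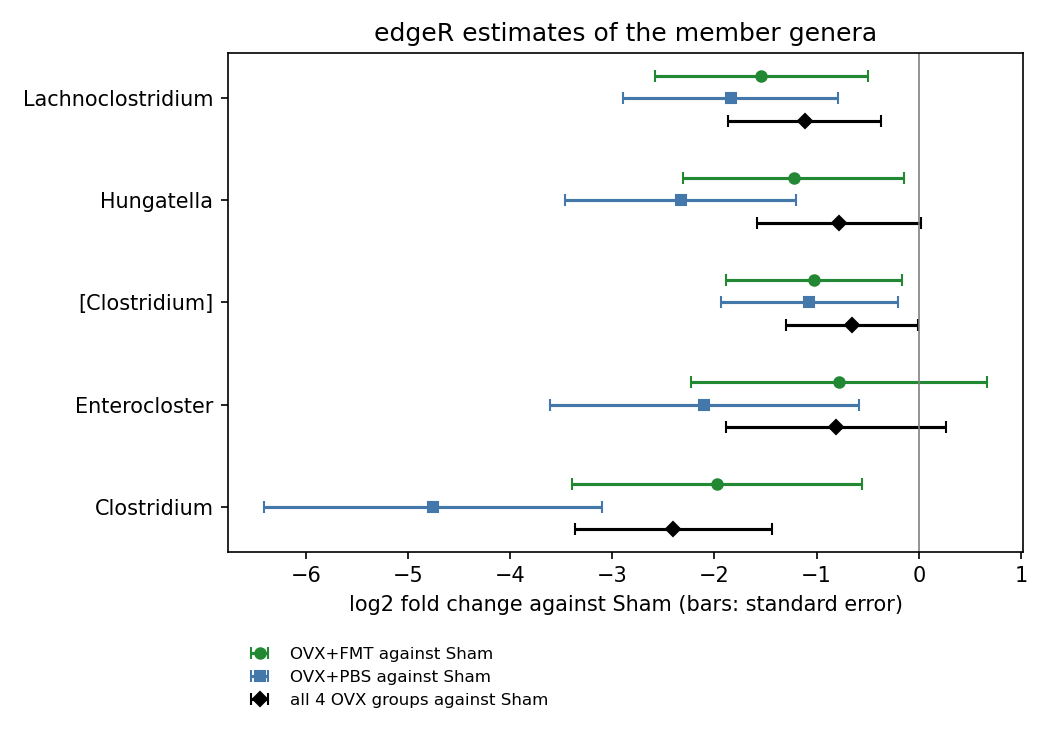
edgeR log2 fold changes (horizontal axis, bars are standard errors) of the 5 member genera in OVX+FMT against Sham, OVX+PBS against Sham and all 4 OVX groups against Sham, which share the Sham libraries. The 15 estimates lie below 0, from -4.75 for Clostridium in OVX+PBS to -0.66 for [Clostridium] in the 4 groups together, and none passed the test.

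Clostridium disporicum was the 1 member species to pass the test between the 4 OVX groups and Sham. Its share was 0.00676% ± 0.0151 in OVX+GEX, 0.0294% ± 0.0298 in OVX+FMT, 0% in 5 of 5 OVX+PBS libraries, 0.0237% ± 0.0530 in OVX and 0.301% ± 0.234 in Sham (SD, n = 5 each). It was lower in the 4 OVX groups together than in Sham in an edgeR fit of 125 species, of which 5 passed (4%; adjusted p = 0.0202); the OVX+PBS group at 0 entered this contrast at a level set by the fit's prior count. Sham itself was split: 4 libraries held 0.637%, 0.389%, 0.225% and 0.254%, and Sham replicate 5 held none, which allows up to 0.0296%. Most of it was ASV_188, with 0 counts in the 5 OVX+GEX libraries, 0, 7, 0, 0 and 0 in OVX+FMT, 0 in the 5 OVX+PBS libraries, 0, 0, 0, 12 and 0 in OVX, and 49, 27, 39, 49 and 0 in Sham. Counts were thus seen in 2 of 20 OVX-group libraries and in 4 of 5 Sham libraries. The rest of genus Clostridium did not follow: Clostridium polynesiense averaged 0.0215% ± 0.0307 in the 20 OVX-group libraries and 0.0287% ± 0.0347 in Sham (edgeR adjusted p = 0.931). Toxin-forming Clostridium perfringens, listed under its ATCC type strain and singled out here with its values already known, had 37 counts in 1 library, OVX+GEX replicate 4 (0.435%), where Shigella held 4.93%. A further ASV named Clostridium perfringens had 2 counts in OVX replicate 1. Hence the genus mean of OVX+GEX (0.114%) came mostly from another species than the genus mean of Sham.

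At the level of ASVs, 32 of the 144 members passed the filter of at least 3 counts in at least 5 libraries, and they held 58.5% of member counts. In the 4 OVX groups against Sham, 45 of 379 ASVs passed edgeR's test (11.9%), 41 of them lower (10.8%). Among the 32 members 6 passed, all lower in the OVX groups: ASV_188 of Clostridium disporicum (adjusted p = 0.00554), ASV_110 of [Clostridium] polysaccharolyticum (0.0115), ASV_461 of Hungatella hathewayi (0.0115), ASV_513 of Enterocloster bolteae (0.0121), and ASV_265 and ASV_319 of Lachnoclostridium pacaense (0.0267 and 0.0428). An ASV that reached the filter through Sham had to be higher there, so this count does not speak for the 144. The contrast averages the log levels of the 4 groups, and groups at 0 enter it at a level set by the fit's prior count. With the 20 libraries as 1 group, a setting added after seeing the data, edgeR called 0 of 379 ASVs (adjusted p = 0.174 to 0.437 for these 6). The exact permutation test on shares with the same 2 groups called 9 of 379 (2.37%), with 3 members: ASV_188, ASV_319 and ASV_273, another Lachnoclostridium pacaense ASV. DESeq2 gave no adjusted p to any of the 32. The mean share was 0.00925% in the OVX groups and 0.245% in Sham for ASV_188, and 0.00888% and 0.0949% for ASV_319.

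Each of these ASVs was seen in a minority of the OVX-group libraries. ASV_265 had 0 counts in the OVX+GEX and OVX+FMT libraries, 0, 0, 16, 0 and 0 in OVX+PBS, 0, 0, 11, 0 and 0 in OVX, and 0, 11, 26, 26 and 16 in Sham. ASV_319 had 0 counts in OVX+GEX, 0, 2, 0, 7 and 0 in OVX+FMT, 9, 0, 0, 0 and 0 in OVX+PBS, 0, 0, 4, 0 and 0 in OVX, and 0, 18, 11, 22 and 13 in Sham. Both Lachnoclostridium pacaense ASVs were thus absent from the counts of Sham replicate 1 alone among Sham libraries. ASV_461 had 0, 9, 0, 7 and 0 counts in OVX+GEX, 0 in every OVX+FMT, OVX+PBS and OVX library, and 0, 12, 0, 9 and 11 in Sham. ASV_513 had 0 counts in OVX+GEX, OVX+FMT and OVX+PBS, 0, 8, 4, 0 and 0 in OVX, and 0, 4, 9, 14 and 0 in Sham. Where seen, ASV_461 and ASV_513 had 4 to 14 counts a library, close to the 3 counts that a 0 allows, and ASV_110 and ASV_188 reached 172 and 49. Sham and the OVX groups overlapped for each of the 6. The most abundant member, ASV_116 of Lachnoclostridium pacaense, averaged 0.0456% ± 0.0947 (n = 20) in the OVX groups and 0.371% ± 0.298 (n = 5) in Sham without passing (edgeR adjusted p = 0.117).

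**Figure D5:**
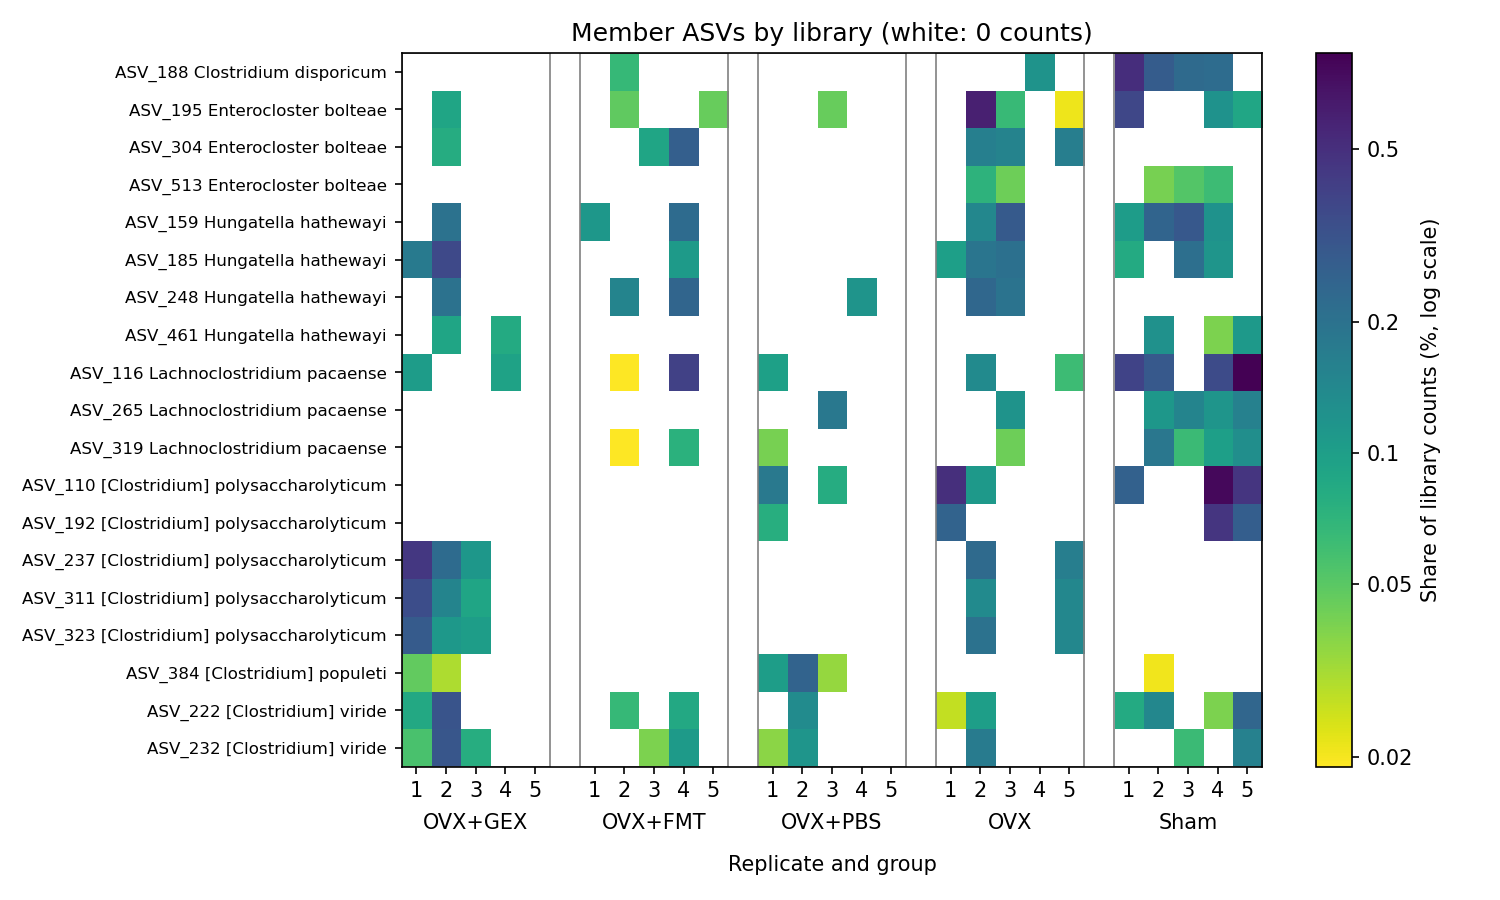
Share of library counts (%, colour on a log scale, white for 0 counts) of 19 member ASVs in the 25 libraries, by replicate and group; rows are ASVs with their species names. ASV_188, ASV_265 and ASV_319 fill 4 of 5 Sham columns and 2, 2 and 4 of the 20 columns of OVX groups, while ASV_237, ASV_311 and ASV_323 fill the same 5 columns, all outside Sham, OVX+FMT and OVX+PBS.

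Within single species, some ASVs were seen in Sham and OVX-group libraries and others in OVX-group libraries alone. In [Clostridium] polysaccharolyticum, ASV_110 had 0 counts in OVX+GEX and OVX+FMT, 39, 0, 7, 0 and 0 in OVX+PBS, 56, 12, 0, 0 and 0 in OVX, and 25, 0, 0, 172 and 47 in Sham. ASV_237 of the same species had 48, 22, 10, 0 and 0 counts in OVX+GEX, 0 in OVX+FMT and OVX+PBS, 0, 25, 0, 0 and 16 in OVX, and 0 in Sham. The 2 ASVs shared 1 library, OVX replicate 2. ASV_311 and ASV_323 of the species, named after their values were seen, occurred in exactly the same 5 libraries as ASV_237, with ASV_237 at 1.14 to 1.67 times the counts of ASV_311 and 1.11 to 2.00 times those of ASV_323. ASV_110 stood at 1.65 to 2.29 times ASV_192, also named after its values were seen, in the 4 libraries that held both. Whether ASVs in steady ratio are rRNA gene copies of 1 genome was not tested. Among members seen in at least 3 libraries, 5 of 64 (7.81%) shared their exact set of libraries with another member, and among other ASVs 35 of 612 (5.72%) did so with each other. The species as a whole averaged 0.225% ± 0.322 in the 20 OVX-group libraries and 0.494% ± 0.520 in Sham (edgeR adjusted p = 0.300 over 125 species).

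Hungatella hathewayi and Enterocloster bolteae showed the same mixture. ASV_159 of Hungatella hathewayi had 0, 20, 0, 0 and 0 counts in OVX+GEX, 25, 0, 0, 21 and 0 in OVX+FMT, 0 in OVX+PBS, 0, 16, 26, 0 and 0 in OVX, and 10, 24, 51, 27 and 0 in Sham. ASV_248 of the species had 0 counts in Sham and was seen in 6 OVX-group libraries with 10 to 26 counts; its edgeR adjusted p was 0.114. ASV_304 of Enterocloster bolteae had 0 counts in Sham and in OVX+PBS, and 8 to 25 counts in 6 libraries of OVX+GEX, OVX+FMT and OVX (edgeR adjusted p = 0.158 for OVX against Sham, the smallest among members there). ASV_195 of the same species had 36, 0, 0, 27 and 9 counts in Sham and its highest count, 66, in OVX replicate 2. As whole species, Hungatella hathewayi averaged 0.429% ± 0.627 in the OVX groups and 0.825% ± 0.206 in Sham, and Enterocloster bolteae 0.161% ± 0.262 and 0.318% ± 0.225 (SD, n = 20 and 5), with edgeR adjusted p-values of 0.529 and 0.667. Lachnoclostridium pacaense averaged 0.428% ± 0.629 and 1.36% ± 0.636 (edgeR adjusted p = 0.235), and [Clostridium] viride 0.163% ± 0.198 and 0.403% ± 0.139 (0.508). [Clostridium] methylpentosum was level, at 0.0405% ± 0.0416 and 0.0491% ± 0.0268 (0.960), and Enterocloster clostridioformis averaged 0.0217% ± 0.0483 and 0.0649% ± 0.0964 (0.655). ASV_185 of Hungatella hathewayi and ASV_222 and ASV_232 of [Clostridium] viride were seen in 6, 7 and 8 of 20 OVX-group libraries and in 3, 4 and 2 of 5 Sham libraries.

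[Clostridium] populeti ran against the other names, with its highest shares in OVX+PBS. Its share was 0.0470%, 0.0301%, 0%, 0% and 0% in OVX+GEX, 0% in every OVX+FMT library, 0.161%, 0.409%, 0.0342%, 0% and 0% in OVX+PBS, 0% in every OVX library, and 0%, 0.0205%, 0%, 0.0179% and 0% in Sham. Its main ASV, ASV_384, differed in the effect of the transplant minus the effect of GEX (edgeR adjusted p = 0.0478, among 8 of 379 ASVs called, 2.11%). It had 5, 3, 0, 0 and 0 counts in OVX+GEX, 0 in OVX+FMT, 22, 28, 3, 0 and 0 in OVX+PBS and 0 in OVX. It thus reached the filter through OVX+GEX and OVX+PBS alone, the 2 groups that are subtracted in this contrast. The filter therefore favoured an estimate below 0, and the call is no independent support for a difference. OVX+FMT and OVX, both at 0, entered at a level set by the fit's prior count. The edgeR adjusted p lay just inside the threshold and passed it in 9 of 29 settings, this fit included, with adjusted p-values from 0.0374 to 0.874. The call held with OVX+GEX replicate 4 or 5, OVX+FMT replicate 4, OVX+PBS replicate 4 or 5 or OVX replicate 2 left out, and was lost without any other library of these groups. Summed as a species, [Clostridium] populeti did not pass (edgeR adjusted p = 0.0592).

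In the other comparisons no member ASV passed edgeR's test. There were 0 calls among 379 ASVs (0%) in OVX against Sham, OVX+GEX against OVX, OVX+FMT against OVX+PBS, OVX+PBS against OVX, OVX+GEX against Sham and OVX+PBS against Sham, and 4 (1.06%) in OVX+FMT against Sham, none a member. At an unadjusted p under 0.05 there were 8 of 32 members in OVX against Sham, 8 in OVX+GEX against OVX, 8 in OVX+FMT against OVX+PBS and 15 in OVX+PBS against OVX. There were 10 in OVX+GEX against Sham, 12 in OVX+PBS against Sham and 10 in OVX+FMT against Sham. Over all 379 ASVs the counts were 65, 73, 80, 94, 69, 97 and 72 in the same 7 comparisons (17.2% to 25.6%), and the highest member share was 46.9%, in OVX+PBS against OVX. DESeq2 called 0 members in these comparisons. Limma on centred log-ratios called 10 of 379 ASVs in OVX+GEX against Sham (2.64%), 8 in OVX+PBS against Sham (2.11%) and 15 in OVX+FMT against Sham (3.96%). Members among them were ASV_188 in each, with ASV_273 in OVX+PBS and ASV_265 in OVX+FMT. ASV_188 and ASV_265 reached the filter through Sham, which favoured a call lower than Sham, so these calls are no independent support for a difference.

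Some genera moved with the members across libraries and others against them. Of the genera outside the rule, Lacrimispora (Pearson r = 0.859, Spearman rho = 0.864), Kineothrix (0.835 and 0.864) and Schaedlerella (0.778 and 0.803) were most like the summed members in centred log-ratios over 25 libraries. After each group's mean was taken out the Pearson values were 0.835, 0.828 and 0.701. These are the top of a list that ran down to Duncaniella (Pearson r = -0.764), with Eisenbergiella at 0.0203, Anaerocolumna at -0.307 and Coprococcus at -0.431. The correlations are descriptions over libraries that share depth and the sum of all counts. Among the member genera, Hungatella and Lachnoclostridium were most alike (r = 0.657, rho = 0.756), and Clostridium and [Clostridium] least (r = -0.0731, rho = 0.0923). The excluded scindens ASVs (44 ASVs, 2.45% of all counts), relatives known for bile acid dehydroxylation, averaged 2.43% ± 3.15 in OVX+GEX, 0.791% ± 1.42 in OVX+FMT, 0.916% ± 0.796 in OVX+PBS, 2.37% ± 2.95 in OVX and 4.94% ± 2.88 in Sham (SD, n = 5 each).

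Most other genera listed for trimethylamine-forming species had no counts, but Shigella reached 4.93% in 1 library. Of 12 further genera listed for choline, carnitine or gamma-butyrobetaine use, 3 had counts: Shigella with 579, Escherichia with 36 and Emergencia with 13. Shigella was the 1 genus abundant enough to test, and it was higher in OVX+GEX (1.01% ± 2.19) than in Sham, where it had 0 counts (edgeR adjusted p = 0.0410). It was among 4 of 82 genera called in that comparison (4.88%). With 0 counts in Sham it reached the filter through OVX groups alone, so against Sham it could only be called higher. The OVX+GEX mean rested on replicate 4 at 4.93%, and Shigella had counts in 2 of 5 OVX+GEX libraries. In OVX+PBS it averaged 0.276% ± 0.480 (SD, n = 5), and it had counts in 7 of the 20 OVX-group libraries. Emergencia, which includes a species that forms trimethylamine from gamma-butyrobetaine, had counts in 4 OVX-group libraries and none in Sham. Full-length 16S sequences of Shigella and Escherichia are nearly alike, and the split between these names was not tested.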

How the data were processed

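Whole-number read counts per ASV, with a taxonomy of 7 ranks, were deposited by the authors in a table converted from BIOM, per the file headers. Subread is named in the submitters' processing notes without a role; the denoiser, the primers and the taxonomy database were not given in the sources used here. Columns were matched to samples by name, and 5 columns spelled OVX+GES were taken as OVX+GEX. ASV counts were summed per genus and species, with scindens ASVs as a genus row of their own. Of all counts, 0.00432% had no genus and stayed in the totals. Features with at least 3 counts in at least 5 libraries were tested with edgeR 4.0.16 (quasi-likelihood F test, TMM, R 4.3.3), all 25 libraries in 1 fit, with Benjamini-Hochberg adjustment over all features and a threshold of 0.05. The 4 OVX groups against Sham is the mean of 4 group log levels minus Sham. The fits were tested on simulated data with planted changes, of which few passed the threshold, so a missing call says little about these sparse features.

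Alternatives were TMMwsp, size factors and the Wald test of DESeq2 1.42.0, library totals, centred log-ratios (0.5 added) in limma 3.58.1, exact two-sided permutation of shares, no filter and a stricter one, a fit to just the groups compared, a block for replicate number, and each library left out. The members and lists were chosen with earlier results of these data known. Named were the 5 genera, species with at least 1% of member counts, the 10 member ASVs of highest mean share, ASVs past the threshold, the member ASV of smallest p in each comparison, and the 3 genera most alike; further names were chosen after their values were seen. Where a feature had 0 counts, its share could reach 3 counts of the library total, which is 0.0134% to 0.0353%. No value of 1 occurs in the deposited counts, against 464 values of 2. A 0 may therefore stand for 1 read, and these limits may be too low.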

Additional observations from a re-analysis of the deposited data

Results flagged for a closer look

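Of 80 sets of 5 libraries of 1 group (the summed share, the number of member ASVs, the 5 genera and the named species), 22 had a library whose gap to the nearest of the others was over 0.71 of the group's range (Dixon's 95% value). Chance flags about 1 in 20 where sets are independent and values normally distributed. These sets are shares bounded at 0, with species nested in genera and in the sum, so whether 22 exceeds chance was not tested. Sets with 1 library above 0 are flagged by construction. OVX+FMT replicate 4 stood apart in the summed share (4.50%, against 0.187% to 0.768% in the other 4), Enterocloster (0.685%), Hungatella (1.13%) and Lachnoclostridium (2.22%). The same library stood apart in Enterocloster bolteae (0.517%), Enterocloster clostridioformis (0.169%), Hungatella hathewayi (1.13%) and Lachnoclostridium pacaense (2.22%). OVX+GEX replicate 2 stood apart in the number of member ASVs (36, against 9 to 15), Hungatella and Hungatella hathewayi (2.28% each) and [Clostridium] viride (0.802%). Clostridium was high in OVX+GEX replicate 4 (0.471%), OVX+PBS replicate 2 (0.0356%) and OVX replicate 4 (0.227%), and Hungatella was low in Sham replicate 1 (0.473%, against 0.927% to 0.984%). Clostridium disporicum had counts in 1 OVX+GEX library, replicate 3 (0.0338%), and 1 OVX library, replicate 4 (0.119%). Enterocloster clostridioformis had counts in 1 library each of OVX+GEX (replicate 5, 0.0557%), OVX+PBS (replicate 3, 0.0913%) and OVX (replicate 2, 0.117%). [Clostridium] methylpentosum was high in OVX+GEX replicate 5 (0.130%). ASV_384 of [Clostridium] populeti differed between the effect of the transplant and that of GEX by the interaction test (edgeR adjusted p = 0.0478). It reached the filter through OVX+GEX and OVX+PBS alone, with 0 counts in OVX+FMT and OVX, so the filter favoured this direction.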

How the results depend on the processing

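The count of member genera called was 0 in every comparison. It became 1 (Clostridium) for OVX+PBS against Sham by DESeq2's Wald test, by limma on centred log-ratios and with only the groups compared. It became 1 (Clostridium) for the 4 OVX groups against Sham with library totals only, and 1 by exact permutation with the OVX libraries as 1 group. With single libraries left out it ran from 0 to 1 in OVX+FMT against Sham and from 0 to 2 for the 4 groups, in both cases through OVX+FMT replicate 4. For OVX+PBS against Sham, DESeq2 called 8 of all 82 genera and limma 2. Calls over all genera are not given here for the other settings, so their member calls cannot be set beside the whole table. In the 4 OVX groups against Sham, 6 of 32 member ASVs were called, among 45 of 379 ASVs. Without a filter it was 38 of 88 members, where 288 of 947 ASVs were called. The stricter filter kept 13 members and called 3 of them, among 18 of 236 ASVs. ASV_319, ASV_461 and ASV_513 had too few counts for it and were not tested there. With the OVX libraries as 1 group, edgeR called 0 of 379 ASVs. Exact permutation called 3 members, among 9 of 379 ASVs. Counts summed per species name gave 1 species (Clostridium disporicum), among 5 of 125 called. With libraries left out the member calls ran from 5 to 8, and the calls over all ASVs from 28 to 64 of 379. DESeq2 gave no adjusted p to these 32 ASVs, so it has no value there. Limma called 1 member among 10 ASVs in OVX+GEX, 2 among 8 in OVX+PBS and 2 among 15 in OVX+FMT against Sham, in place of 0. Among these members ASV_188 and ASV_265 reached the filter through Sham, which favoured a call lower than Sham. The fit with only the groups compared called 2 members in OVX+GEX against Sham, and its calls over all ASVs are not given here. The ASV_384 call, 1, became 0 with library totals only, DESeq2, limma, no filter, only the groups compared, the replicate block and counts per species name. It ran from 0 to 1 with libraries left out. ASV_384 had too few counts for the stricter filter and was not tested there. Replicate numbers gave little sign of pairing the samples. Same-numbered libraries had a median correlation of 0.0615 (-0.286 to 0.323) in their deviations from group means, against -0.0149 for other numbers. Of the 25 libraries, 5 correlated best with their own number. With 5 libraries a group this check cannot exclude a pairing. With the replicate block, 6 member ASVs passed in the 4 groups against Sham, among 42 of 379 ASVs, with ASV_273 in place of ASV_319. With it, 0 member genera passed in each comparison. Depth limits the rare members: with 3 counts as the most that a 0 allows, an ASV under 0.0353% can be missed in the shallowest library. The summed share is counts over the library total, so of these settings only leaving out a library could change its group means. Without OVX+FMT replicate 4 the OVX+FMT mean fell from 1.24% to 0.421%, below that of OVX+PBS (0.710%).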
